A study of Mus musculus with 48 samples.

Results

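Immune checkpoint genes were examined in mouse tumors of B16-D5, a subclone of the B16 melanoma line: the PD-1 ligands Cd274 (PD-L1) and Pdcd1lg2 (PD-L2), the inhibitory receptors Pdcd1 (PD-1), Ctla4, Lag3, Havcr2 (TIM-3) and Tigit, and the B7 family ligands Cd80, Cd86 and Cd276 (B7-H3). They were chosen by name, as 10 of the 55450 genes counted by RNA sequencing, and the choice sets no threshold on any measured value. The 48 libraries each came from the tumor of 1 mouse, with 3 tumors in each of 16 conditions. The first experiment, a time course in WT C57BL/6J hosts, had 10 conditions: untreated tumors at 0 h, and untreated, IgG-treated or anti-PD-1-treated tumors at 6 h, day 1 and day 3. The second, at day 7, had 6 conditions: untreated, IgG or anti-PD-1 in WT hosts and the same in iNOS KO hosts. B16-D5 cells were placed under the skin of the flank 8 days before therapy. Mice were 4 weeks old on receipt and were kept a further 2 weeks. Antibody was given at 250 µg on day 0 and day 3, so treated tumors of 6 h and day 1 differ from those of day 7 in the number of doses. Whether tumors of day 3 were taken before or after the second dose is not given in the sources used here. The knockout is in the host and not in the injected melanoma cells, which do not come from a knockout of Nos2, the gene of iNOS.

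PD-1 is an inhibitory receptor of activated T cells, and its ligands PD-L1 and PD-L2 are carried by tumor cells, macrophages and dendritic cells. Interferon-γ induces the factor IRF1 and is the best known inducer of PD-L1. Antibody to PD-1 blocks the receptor from its ligands and acts on the protein, so RNA of these genes shows the genes' activity and the cells present, not the block itself. CTLA-4 competes with the activating receptor CD28 for CD80 and CD86 on antigen-presenting cells. LAG-3, TIM-3 and TIGIT are further receptors that accumulate on T cells under prolonged stimulation, and TIM-3 is also carried by myeloid cells. B7-H3 is a B7 family member found on many tumor and stromal cells.

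Gene totals ran from 25574203 to 47687872 counts per library in the time course (median 37544682) and from 11625862 to 40959309 at day 7. Levels are in CPM, counts scaled to the library's TMM-normalised total. Where a gene had 0 counts, as many as 3 could have been missed, or 0.0688 to 0.105 CPM in the time course and 0.0763 to 0.197 CPM at day 7, for counting error only. At day 7, 3 libraries stood apart in reads on chemosensory receptor genes (the olfactory, vomeronasal and taste families). The sum over these genes was 3710 CPM in WT anti-PD-1 replicate 3, 1304 in replicate 4 and 915.9 in untreated iNOS KO replicate 1, against 12.3 to 232.5 CPM in the other 15. Several results that rest on these 3 libraries are given with and without them. The marker sums of cell types, and some values of members, are given only with these libraries. Without them the WT anti-PD-1 group keeps 1 tumor, assumed to vary like the other groups, so a call lost there says nothing about stability. Nos2 had 37 to 233 counts in the 9 tumors titled iNOS KO and 48 to 144 counts in the 9 WT tumors of day 7, so the gene's total did not separate the hosts. These totals include RNA of the injected cells and are not split by exon, and therefore do not check the genotype in the titles. The melanoma markers Pmel and Mlana were abundant in every tumor, at 1084 CPM or more and 341.6 CPM or more. Levels at day 7 were scaled apart from those of the time course and are not compared with them.

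Per length of exon, Cd276 was the most abundant of the 10 genes, with a median of 22.8 CPM per kb over the 30 time course tumors and 23.3 over the 18 tumors of day 7. Cd274 followed at 5.72 and 4.80 CPM per kb, and Havcr2 at 2.24 and 1.99. Lag3, Cd86, Pdcd1lg2 and Cd80 lay between 0.892 and 1.48 CPM per kb in the time course. Tigit, Pdcd1 and Ctla4, which are carried mainly by lymphocytes, had medians of 0.232, 0.205 and 0.155 CPM per kb. Cd276 was also the most even: its highest tumor had 1.29 times the median of the time course, whereas the highest tumor had 10.2 times the median for Cd274 and 16.03 times for Pdcd1. The plot of levels per exon length shows the even spread of Cd276 and the few high tumors above the rest for Cd274.

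**Figure D1:**
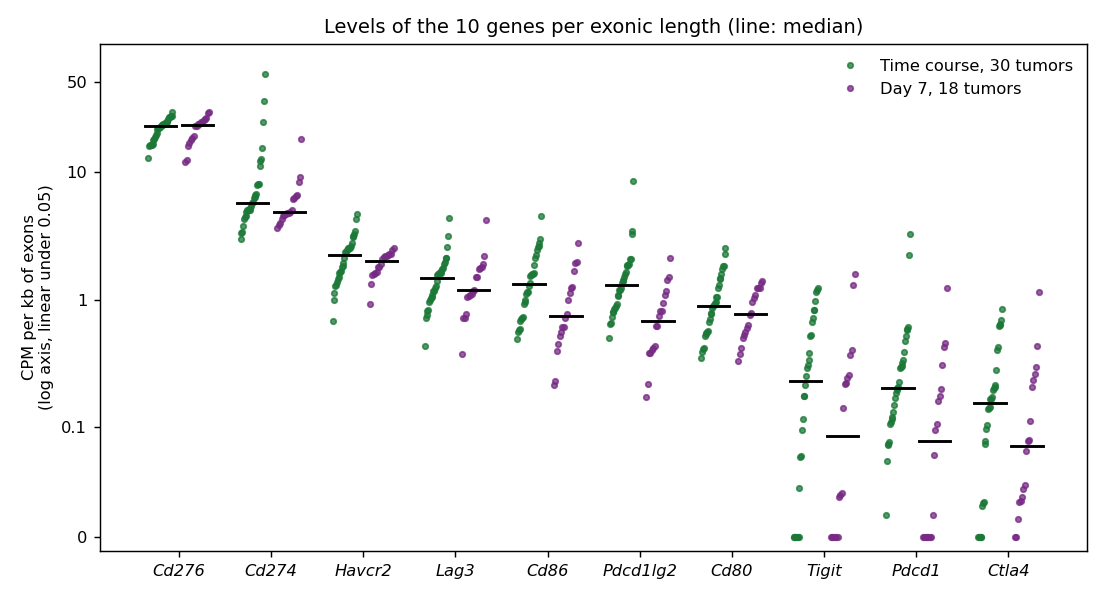
CPM per kb of exons (log axis, linear under 0.05) of the 10 genes in each tumor, with the 30 time course tumors in green, the 18 tumors of day 7 in purple and a line at each median. Cd276 has the highest medians, 22.8 and 23.3 CPM per kb, and Tigit, Pdcd1 and Ctla4 reach down to 0 counts.

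Cd274 (ENSMUSG00000016496.7) lies on chromosome 19 at 29367455 to 29388095 of GRCm38, plus strand, and Pdcd1lg2 (ENSMUSG00000016498.10) on the same strand at 29410919 to 29471161, 22.8 kb further on. Exons of Cd274 overlap AC119228.1 on the other strand, and exons of Cd276 overlap Gm10657 in the same way. The libraries keep strand, but whether the counting used it is not given in the sources used here. The 250 bases before the RefSeq start (GRCm38.p6) are shown for the 2 ligands, whose levels are compared below, and for Ctla4, the one other member with a match. They run 5′ to 3′ on the plus strand and cover chr19:29367188-29367437, chr19:29410669-29410918 and chr1:60908775-60909024. Capitals mark a match to GAAANNGAA, the repeat of interferon regulatory factor sites, read on both strands.
Cd274: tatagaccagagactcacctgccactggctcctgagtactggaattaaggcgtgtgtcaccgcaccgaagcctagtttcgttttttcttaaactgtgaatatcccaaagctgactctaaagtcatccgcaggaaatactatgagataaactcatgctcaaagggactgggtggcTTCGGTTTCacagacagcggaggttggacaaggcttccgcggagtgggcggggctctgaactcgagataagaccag
Pdcd1lg2: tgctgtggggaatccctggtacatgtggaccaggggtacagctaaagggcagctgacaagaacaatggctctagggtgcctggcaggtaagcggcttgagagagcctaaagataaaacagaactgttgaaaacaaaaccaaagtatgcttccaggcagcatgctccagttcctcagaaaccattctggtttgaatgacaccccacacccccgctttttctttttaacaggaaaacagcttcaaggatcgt
Ctla4: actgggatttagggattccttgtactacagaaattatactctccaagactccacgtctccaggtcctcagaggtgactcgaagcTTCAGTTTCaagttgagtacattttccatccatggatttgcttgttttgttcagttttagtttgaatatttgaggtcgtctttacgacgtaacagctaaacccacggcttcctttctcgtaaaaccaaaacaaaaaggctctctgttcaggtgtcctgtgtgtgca
The capitals in Cd274 lie 76 to 68 bases before the start and those in Ctla4 166 to 158 bases before it. Such a match was present in 1934 of 27025 windows of the same length (7.16%), and in 2 of the 8 members with a window, Cd274 and Ctla4. The windows of Pdcd1, Havcr2, Tigit, Cd80 and Cd276 also had no match, and Lag3 and Cd86 had no entry. A second pattern, the palindrome TTCNNNGAA of STAT factor sites, was present in 1940 of the 27025 windows (7.18%) and in 0 of the 8 members.

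The level of Cd274 differed mainly between single tumors of a condition. Untreated tumors of the time course were even, at 20.5, 20.9 and 18.9 CPM at 0 h, 19.4, 10.8 and 15.5 CPM at 6 h, 24.1, 18.2 and 13.7 CPM at day 1, and 28.5, 28.9 and 18.2 CPM at day 3. In IgG-treated tumors the values were 56.0, 11.96 and 18.1 CPM at 6 h, 22.9, 211 and 16.01 CPM at day 1, and 23.7, 43.6 and 16.3 CPM at day 3. Anti-PD-1-treated tumors had 45.6, 17.7 and 130 CPM at 6 h, 12.3, 40.4 and 22.8 CPM at day 1, and 88.1, 29.1 and 18.2 CPM at day 3. Each treated condition thus held at least 1 tumor within the untreated range of 10.8 to 28.9 CPM, and the high tumors were found under IgG as well as under anti-PD-1. The 3 highest tumors had 8698 counts (IgG, day 1, replicate 4), 4549 counts (anti-PD-1, 6 h, replicate 5) and 3832 counts (anti-PD-1, day 3, replicate 3), against a median of 760.5 counts. Ordered by their medians, the 10 conditions ran from untreated at 6 h (15.5 CPM) to anti-PD-1 at 6 h (45.6 CPM), and 9 of 9 neighbours in that order overlapped. At day 7 the conditions ran from IgG in WT hosts, with a median of 16.3 CPM, to untreated tumors of iNOS KO hosts, with 33.04 CPM.

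**Figure D2:**
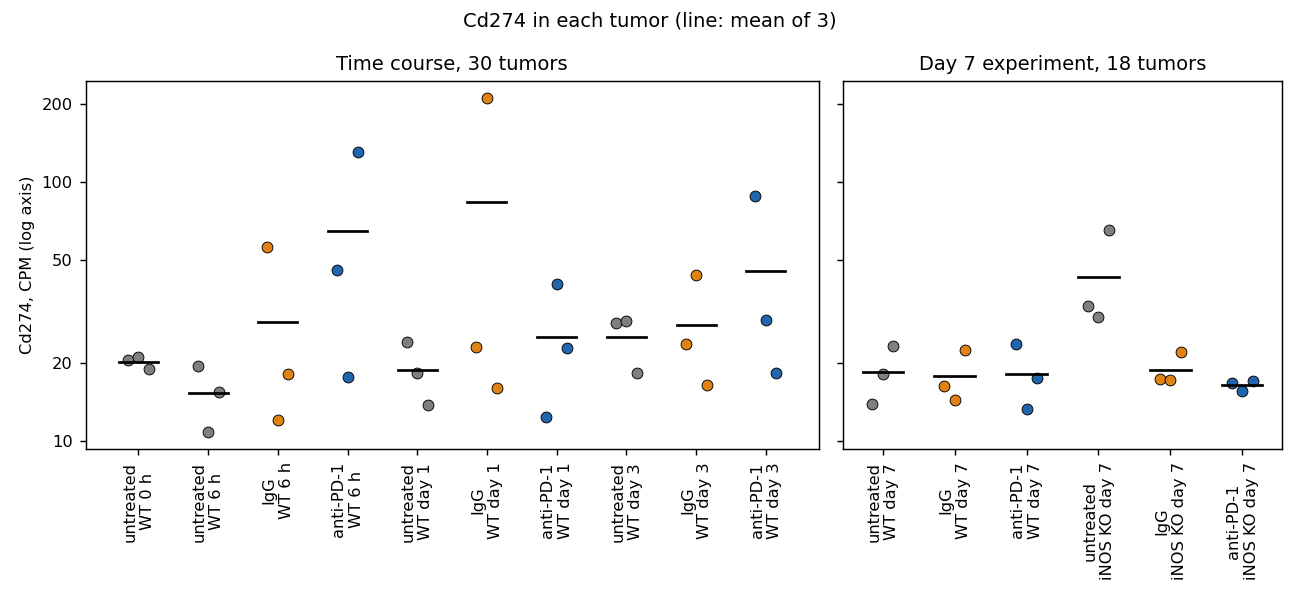
Cd274 in CPM (log axis) for each of the 48 tumors, by condition, in the time course and at day 7, with untreated in grey, IgG in orange, anti-PD-1 in blue and a line at the mean of 3. Single tumors at 211, 130 and 88.1 CPM stand above the rest of the time course, and at day 7 the 3 untreated tumors of iNOS KO hosts lie above the other 15.

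Interferon genes were high in the tumors with much Cd274. IgG day 1 replicate 4 had 374 CPM of Irf1 and 6.95 CPM of Ifng, which encodes interferon-γ. Anti-PD-1 6 h replicate 5 had 246 and 3.71 CPM of the same genes, and anti-PD-1 day 3 replicate 3 had 214 and 2.62 CPM. These were the 3 highest Irf1 and the 3 highest Ifng levels of the 30 tumors. The T cell marker Cd3e stood at 25.6, 16.2 and 18.03 CPM in these 3 tumors, but IgG day 3 replicate 3 had more, 28.6 CPM, with 43.6 CPM of Cd274. The part of T cell content in the spread of Cd274 was not tested. In bulk RNA, more cells that carry a gene and more RNA of it per cell cannot be told apart.

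Pdcd1lg2 was lower and followed Cd274 only in part. Its tumors ranged from 39 to 682 counts (0.977 to 16.5 CPM) in the time course and from 13 to 105 counts at day 7. The highest was again IgG day 1 replicate 4, followed by anti-PD-1 day 3 replicate 3 at 292 counts and anti-PD-1 6 h replicate 5 at 224 counts. IgG day 3 replicate 3, with 43.6 CPM of Cd274, had 1.74 CPM of Pdcd1lg2, below the median of 2.53. Over the 30 tumors the 2 ligands had a Pearson r of 0.736 in log2(CPM + 0.5) (permutation p = 3e-05, Benjamini-Hochberg adjusted 0.00054) and a Spearman rho of 0.446 (permutation p = 0.0145, adjusted 0.0652). Without the 2 tumors farthest from the Cd274 median r was 0.472. Within conditions, after the condition means were removed, r was 0.756. Over the 18 tumors of day 7 r was 0.462 (permutation p = 0.0518, adjusted 0.133), 0.0948 without the 2 farthest and 0.0042 within conditions, so the relation at day 7 did not pass, and its size rested on 2 untreated tumors of iNOS KO hosts. These are among 18 relations of Cd274 with the other 9 genes in both experiments, each with 100000 permutations.

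Among the receptors, Pdcd1, Ctla4 and Tigit were near the limit of detection. Pdcd1 had 1 to 208 counts in the time course, with 14.5 as the median, and 0 to 36 counts at day 7, where 8 of 18 tumors had at most 3. The 2 highest were IgG day 3 replicate 3 with 208 counts and IgG day 1 replicate 4 with 178, and the next was anti-PD-1 day 3 replicate 3 with 51. Ctla4 had 0 to 69 counts and was at most 3 in 8 of 30 tumors, with the highest values in anti-PD-1 6 h replicate 5 (69 counts) and IgG day 1 replicate 4 (66). IgG day 3 replicate 3 had 0 counts of Ctla4 and 0 of Tigit, although it held the most Pdcd1. Tigit had 0 to 38 counts, at most 3 in 11 of 30 tumors. At 6 h the 3 IgG tumors had 37, 31 and 30 counts of Tigit, above the 1, 6 and 7 counts of the untreated tumors, while anti-PD-1 tumors had 26, 0 and 38. At day 7 the low counts met the receptor background: in WT anti-PD-1 replicate 3 the rate per kb on the chemosensory receptor genes amounts to 15.1 of 36 counts of Pdcd1, 18.2 of 41 of Ctla4 and 7.20 of 22 of Tigit, and in replicate 4 to 8.59 counts against 8 observed for Pdcd1. Untreated iNOS KO replicate 1 had 17 counts of Ctla4 against 9.02 at that rate.

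Lag3 and Havcr2 were counted in every tumor. Lag3, whose product binds MHC class II, ran from 29 to 303 counts (0.910 to 9.22 CPM) in the time course, and the highest were IgG day 3 replicate 3 at 9.22 CPM, IgG day 1 replicate 4 at 6.59 CPM and anti-PD-1 day 3 replicate 3 at 5.43 CPM. Havcr2 ran from 57 to 528 counts (1.85 to 12.8 CPM), with IgG day 1 replicate 4 and IgG day 3 replicate 3 highest at 12.8 and 11.7 CPM. The same 2 IgG tumors thus led Pdcd1, Havcr2 and Lag3. At day 7 Havcr2 was narrow, between 2.52 and 6.94 CPM. Lag3 at day 7 was highest in WT anti-PD-1 replicates 3 and 4, with 8.92 and 4.59 CPM, which are 2 of the 3 libraries rich in receptor counts, and the third WT anti-PD-1 tumor had 2.25 CPM.

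The 2 ligands of CD28 and CTLA-4 did not follow Cd274 alike. Cd80 ran from 53 to 336 counts (1.28 to 9.34 CPM), and its highest tumors were IgG 6 h replicate 6 at 9.34 CPM and anti-PD-1 day 1 replicate 5 at 8.41 CPM, which had 18.1 and 22.8 CPM of Cd274. Cd86 ran from 75 to 686 counts (1.81 to 16.6 CPM), with IgG day 1 replicates 4, 6 and 2 at 16.6, 10.8 and 9.41 CPM. The summed level of 9 macrophage markers was 591.7, 1195 and 1005 CPM in the same tumors, against 426.0 to 843.3 CPM in untreated tumors of day 1, and its part in the Cd86 values was not tested. Cd276 held between 46.5 and 107 CPM in all 30 tumors of the time course, and between 43.3 and 106 CPM in the 18 of day 7. Its lowest 3 at day 7 were WT anti-PD-1 replicate 3 (43.3 CPM), untreated iNOS KO replicate 1 (44.9 CPM) and WT anti-PD-1 replicate 4 (58.3 CPM), the 3 libraries with the most receptor counts.

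Anti-PD-1 was first compared with its IgG control, which tells the antibody's target from the injection of antibody. Of the 10 genes, 0 passed the edgeR test in each of the 3 comparisons of the time course, in their average, and in WT or iNOS KO tumors at day 7, and the share of all genes that passed was 0.0% in each of these 6. Unadjusted p-values were under 0.05 for 0 genes at 6 h, 2 at day 1, 0 at day 3, 0 in the average, 1 in WT tumors and 0 in iNOS KO tumors at day 7, and DESeq2 called 0 of the 10 in each. Over all genes tested, the share with an unadjusted p under 0.05 was 4.38%, 3.64%, 2.14%, 5.84%, 16.3% and 1.94% in the same order.

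Cd274 at 6 h was 64.4 ± 58.5 CPM after anti-PD-1 and 28.7 ± 23.8 CPM after IgG (SD, n = 3), and the groups overlapped. The log2 fold change was 1.17 (standard error 0.762, adjusted p = 0.990 by edgeR) and 0.18 without replicate 5 of the anti-PD-1 tumors, and without replicate 1 of the IgG tumors it was 2.19. At day 1 the sign was opposite, at −1.73 (standard error 0.772, adjusted p = 1.0), with 25.1 ± 14.2 against 83.2 ± 110 CPM. This value rested on IgG replicate 4, and without it the log2 fold change was 0.32. At day 3 it was 0.70 (standard error 0.756, adjusted p = 1.0), and −0.28 without anti-PD-1 replicate 3. Averaged over the 3 times it was 0.05 (standard error 0.434, adjusted p = 1.0), with −0.29 without anti-PD-1 6 h replicate 5. At day 7 the groups overlapped in WT hosts but not in iNOS KO hosts. The levels were 18.1 ± 5.21 and 17.7 ± 4.21 CPM in WT hosts and 16.4 ± 0.747 and 18.8 ± 2.81 CPM in iNOS KO hosts, with log2 fold changes of 0.04 (standard error 0.272, adjusted p = 0.927) and −0.20 (standard error 0.271, adjusted p = 1.0). The difference of these 2 contrasts was −0.24 (standard error 0.384, adjusted p = 0.962). Without the 3 libraries rich in receptor counts the WT contrast was 0.42 and the difference −0.62, each with an adjusted p of 1.0.

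**Figure D3:**
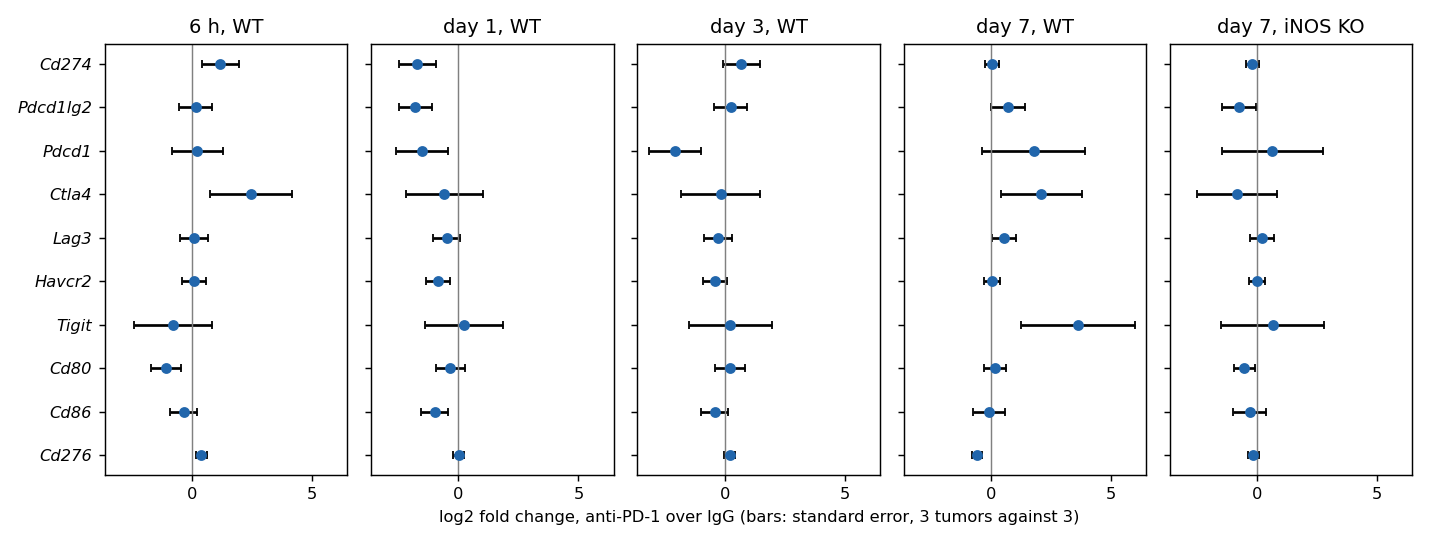
Log2 fold change of anti-PD-1 over IgG for the 10 genes at 6 h, day 1, day 3 and day 7, with 3 tumors against 3 and bars of 1 standard error. Cd274 lies at 1.17, −1.73, 0.70, 0.04 and −0.20 from left to right, and the bars of the low genes Ctla4, Tigit and Pdcd1 are the longest.

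The other genes with the smallest p in these comparisons did not pass either. Cd80 at 6 h was 2.07, 2.48 and 3.17 CPM after anti-PD-1 and 3.33, 3.89 and 9.34 CPM after IgG, without overlap (log2 fold change −1.10, standard error 0.628, adjusted p = 0.967), and IgG replicate 6 set much of it, since without that tumor the value was −0.46. Pdcd1lg2 at day 1 was 2.11, 3.10 and 0.977 against 2.08, 16.5 and 2.80 CPM (log2 fold change −1.79, standard error 0.706, adjusted p = 1.0), and −0.29 without IgG replicate 4. Pdcd1 at day 3 was 51, 8 and 10 counts against 5, 208 and 21 (log2 fold change −2.08, standard error 1.10, adjusted p = 1.0), and 0.66 without IgG replicate 3. In the average over the 3 times Pdcd1 had −1.13 (standard error 0.619, adjusted p = 0.895), which was −0.22 without that same tumor and −0.66 without IgG day 1 replicate 4. A single IgG tumor with many counts thus set the sign or most of the size in each of these cases. Cd276 in WT tumors of day 7 was 83.8, 43.3 and 58.3 CPM after anti-PD-1 and 106, 106 and 67.3 CPM after IgG (log2 fold change −0.59, standard error 0.217, adjusted p = 0.305). It was −0.17 without the 3 libraries rich in receptor counts, and −0.90 with an adjusted p of 0.0225 without anti-PD-1 replicate 2, the one tumor of that group outside them. In that last setting 2271 of all genes were called, against 0 with every tumor. Cd80 in iNOS KO tumors had a value of −0.54 on the log2 scale (standard error 0.442, adjusted p = 1.0), which was −0.20 without IgG replicate 2, −0.29 without anti-PD-1 replicate 3 and −0.88 without anti-PD-1 replicate 1. Pdcd1lg2 had the smallest p in the genotype by treatment interaction (−1.44, standard error 1.005, adjusted p = 0.731), and −0.13 without the 3 libraries rich in receptor counts. Its WT anti-PD-1 tumors had 0.796, 2.95 and 2.29 CPM, the last 2 being of those libraries.

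Antibody itself was examined by comparing IgG-treated with untreated tumors, and anti-PD-1-treated with untreated tumors at 6 h. edgeR called 0 of the 10 genes in these 4 comparisons of the time course, where 0.0% of all genes passed, and DESeq2 called 0. The unadjusted p was under 0.05 for 1 gene after anti-PD-1 at 6 h, and after IgG for 0 genes at 6 h, 4 at day 1 and 1 at day 3. The share of all genes tested at that level was 3.3%, 5.42%, 5.43% and 2.64% in the same order. Cd274 at 6 h was 64.4 ± 58.5 CPM after anti-PD-1 against 15.2 ± 4.34 CPM in untreated tumors (SD, n = 3). The log2 difference was 2.08 (standard error 0.783, adjusted p = 1.0). It was 1.06 without anti-PD-1 replicate 5, and the groups overlapped, since replicate 3 had 17.7 CPM and the highest untreated tumor 19.4 CPM. After IgG at day 1 the genes with an unadjusted p under 0.05 were Cd86, Cd274, Pdcd1lg2 and Pdcd1. Cd86 was 9.41, 16.6 and 10.8 CPM against 4.96, 2.67 and 4.22 CPM, with no overlap (log2 fold change 1.64, standard error 0.580, adjusted p = 0.859), and 1.39 without IgG replicate 4. Tigit had the smallest p at 6 h (log2 fold change 2.94, standard error 1.76, adjusted p = 0.760), from the counts above. Pdcd1 led at day 3 with 2.35 (standard error 1.11, adjusted p = 1.0), and −0.39 without IgG replicate 3.

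Time without treatment and time after antibody were examined within the time course. Against 0 h, untreated tumors at 6 h, day 1 and day 3 had 0 of the 10 genes called by edgeR, 0 with an unadjusted p under 0.05 and 0 called by DESeq2, with 0.0% of all genes called in each. Cd274 had log2 fold changes of −0.41, −0.11 and 0.32 with standard errors of 0.758, 0.755 and 0.755. The smallest p belonged to Pdcd1 at 6 h (0.87, standard error 1.12, adjusted p = 0.979) and day 1 (1.23, standard error 1.12, adjusted p = 0.952) and to Cd86 at day 3 (−0.86, standard error 0.574, adjusted p = 0.795). Single tumors set much of these values: Pdcd1 was 0.41 at 6 h without 0 h replicate 2 and 0.52 at day 1 without day 1 replicate 1, and Cd86 was −0.08 without 0 h replicate 3. From 6 h to day 3, 0 genes were called after anti-PD-1 and 0 after IgG, with 0.0% of all genes called and 0 of the 10 by DESeq2. An unadjusted p under 0.05 was found for 0 and 1 of the 10, beside 3.65% and 4.25% of all genes. That gene was Tigit, with 37, 31 and 30 counts at 6 h and 3, 0 and 4 counts at day 3 under IgG, without overlap (log2 fold change −3.90, standard error 1.85, adjusted p = 0.935). After anti-PD-1 Tigit had 26, 0 and 38 counts at 6 h and 10, 0 and 0 counts at day 3 (log2 fold change −2.85, standard error 1.76, adjusted p = 1.0). Replicate 3 alone held the counts of day 3, so it set the size of this value.

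At day 7 the host genotype was compared within each treatment. In untreated tumors Cd274 was higher in iNOS KO hosts, with 33.04, 30.1 and 64.8 CPM (809, 889 and 2420 counts) against 13.9, 18.1 and 23.2 CPM (527, 635 and 803 counts) in WT hosts. The groups did not overlap, the means were 42.7 ± 19.2 and 18.4 ± 4.68 CPM (SD, n = 3), and the log2 fold change was 1.21, or 2.32-fold (standard error 0.274, adjusted p = 0.0452 by edgeR). Cd274 was the 1 gene of the 10 that was called, where 0.587% of the 30837 genes tested were called. Of the 10, 3 had an unadjusted p under 0.05, beside 16.5% of all genes tested. DESeq2 also called 1 of the 10, Cd274, at 1.27 with an adjusted p of 0.00127, among 936 genes that it called in all. The call depended on single tumors: the log2 fold change was 0.76 (adjusted p = 0.166) without iNOS KO replicate 4, 1.05 (0.231) without WT replicate 1 and 1.20 (0.113) without WT replicate 2. It was also lost with only these 6 tumors in the fit (1.27, adjusted p = 0.0749). Without the 3 libraries rich in receptor counts it was 1.36 with an adjusted p of 0.0360. The direction held in each of the 14 alternatives, with log2 fold changes of 0.76 to 1.48. Over all genes tested the median log2 fold change was 0.49 in this contrast, and over the 10 genes it was 1.06.

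Other members in the untreated tumors did not pass. Pdcd1lg2 was 4.17, 1.59 and 2.81 CPM in iNOS KO hosts and 1.21, 0.427 and 1.21 CPM in WT hosts, without overlap (log2 fold change 1.58, standard error 0.720, adjusted p = 0.299). Cd276 was 44.9, 60.9 and 64.5 CPM against 89.5, 93.6 and 86.6 CPM, lower without overlap (log2 fold change −0.66, standard error 0.217, adjusted p = 0.230). In value both PD-1 ligands lay higher and Cd276 lower in the iNOS KO hosts, and of the 3 only Cd274 passed the threshold. Irf1, the interferon-induced factor, was called in the same contrast, with 52.0, 41.1 and 104 CPM against 19.5, 27.7 and 23.3 CPM (log2 fold change 1.48, standard error 0.328, adjusted p = 0.0410). Ifng had 0.408, 0 and 0.375 CPM in the iNOS KO hosts and 0 counts in all 3 WT tumors. The summed level of the 11 T cell markers was 10.1 to 26.7 CPM in iNOS KO hosts and 3.45 to 8.63 CPM in WT hosts, with 11 of 11 higher, 0 called and 3 with an unadjusted p under 0.05, and Cd8a had 0 counts in 1 WT tumor. The 9 macrophage markers summed to 268.7 to 382.8 CPM against 314.4 to 668.4 CPM, with 0 of 9 higher, 0 called and 0 with an unadjusted p under 0.05. The 7 melanoma markers summed to 14060 to 18690 against 15740 to 17560 CPM, with 4 of 7 higher, 0 called and 1 with an unadjusted p under 0.05. Further lists are given because their sums did not overlap between the hosts. The share of all genes that separate the hosts in this way is not given. Over all genes tested the median log2 fold change was 0.49 here, and 16.5% had an unadjusted p under 0.05. The 5 fibroblast markers summed to 444.2 to 625.1 CPM in iNOS KO hosts against 688.6 to 2883 CPM (0 of 5 higher, 3 with an unadjusted p under 0.05), and the 4 endothelial markers to 147.5 to 183.5 against 191.8 to 222.5 CPM (0 of 4 higher, 0 under 0.05). The 4 NK cell markers summed to 1.19 to 3.23 against 0.463 to 1.0 CPM (4 of 4 higher, 1 under 0.05), and the 4 adipocyte markers to 30.3 to 57.3 against 13.4 to 26.2 CPM (4 of 4 higher, 3 under 0.05). edgeR called 0 genes of these 4 lists. Whether these shifts have a part in the Cd274 and Cd276 differences was not tested.

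**Figure D4:**
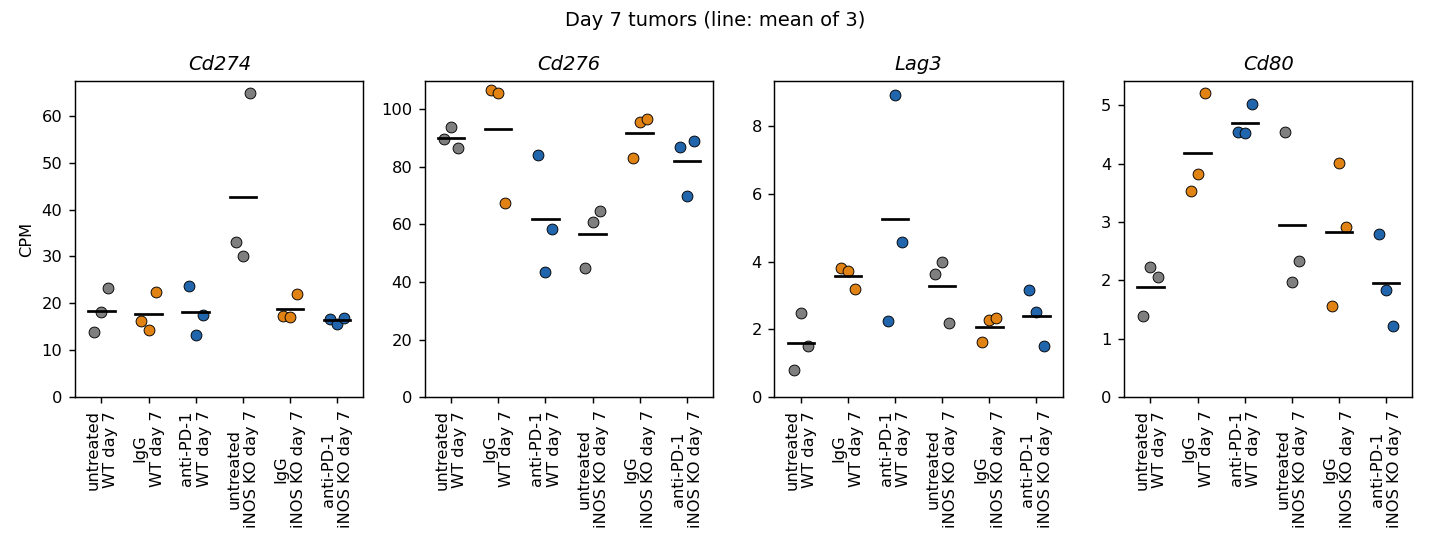
CPM of Cd274, Cd276, Lag3 and Cd80 in the 18 tumors of day 7, by host and treatment, with untreated in grey, IgG in orange, anti-PD-1 in blue and a line at the mean of 3. The untreated iNOS KO tumors lie above every other tumor for Cd274, at 30.1 CPM or more, and Cd276 is 43.3 to 106 CPM throughout.

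After antibody the hosts overlapped in Cd274. With IgG, Cd274 was 17.3, 17.1 and 22.1 CPM in iNOS KO hosts and 16.3, 14.3 and 22.4 CPM in WT hosts (log2 fold change 0.09, standard error 0.271, adjusted p = 0.989). With anti-PD-1 it was 16.7, 15.5 and 16.9 against 23.6, 13.2 and 17.5 CPM (−0.15, standard error 0.272, adjusted p = 0.700), and −0.49 without the 3 libraries rich in receptor counts. edgeR called 0 of the 10 genes with IgG and 0 with anti-PD-1, where 0.0% of all genes were called in each. With IgG 0 had an unadjusted p under 0.05 and DESeq2 called 0; Cd86 had the smallest p (log2 fold change −1.06, standard error 0.678, adjusted p = 0.628), with −0.24 without WT replicate 3. With anti-PD-1 2 of the 10 had an unadjusted p under 0.05, Cd80 and Lag3, beside 32.3% of all genes tested. DESeq2 called 1, Cd80, with an adjusted p of 0.0347, among 3227 genes that it called in all. Cd80 was 2.79, 1.84 and 1.22 CPM in iNOS KO hosts and 4.55, 4.53 and 5.02 CPM in WT hosts, without overlap (log2 fold change −1.27, standard error 0.448, adjusted p = 0.131 by edgeR), and −1.18 without the 3 libraries rich in receptor counts, 2 of which are in this WT group. In those 2, WT replicates 3 and 4, the rate on the chemosensory receptor genes was 7.83 and 4.45 counts per kb. Cd80 has 3.703 kb of exons, and its lowest count in this WT group was 69. The CPM values include that background, and whether the hosts separate in Cd80 without it is not given. The median over all genes tested was −0.91 in this contrast. Without WT replicate 2, which left only those 2 libraries in the WT group, edgeR called Cd276 (0.73, adjusted p = 0.0398) among 4959 genes in all. Sums of some marker lists separated the same groups, whereas those of macrophages, B cells, fibroblasts and endothelium overlapped. The 11 T cell markers summed to 2.89 to 7.21 CPM in iNOS KO hosts and, without overlap, to a median of 22.9 and a highest of 50.6 CPM in WT hosts (0 of 11 higher in iNOS KO, 9 with an unadjusted p under 0.05). The 4 NK cell markers summed to 0.181 to 0.313 against 3.47 to 10.7 CPM (0 of 4 higher, 4 under 0.05), and the 7 dendritic cell markers to 13.3 to 17.4 against 28.4 to 41.4 CPM (0 of 7 higher, 5 under 0.05). The 4 markers of regulatory T cells summed to 3.71 to 4.98 against 9.61 to 19.02 CPM (0 of 4 higher, 3 under 0.05), and the 7 melanoma markers to 15480 to 17130 against 9575 to 13270 CPM (7 of 7 higher, 1 under 0.05). None of these markers was called by edgeR, and 32.3% of all genes tested had an unadjusted p under 0.05 here. The share of all genes that separate these groups is not given. Of the 3 WT tumors 2 are libraries rich in receptor counts, and these sums are not given without them. The part of these markers in the Cd80 and Lag3 values was not tested. Averaged over the 3 treatments, 0 of the 10 genes and 0.00973% of all genes were called by edgeR, and DESeq2 called 0 of the 10. The unadjusted p was under 0.05 for 1 of the 10, beside 12.4% of all genes tested. That gene was Cd274, at 0.38 (standard error 0.157, adjusted p = 0.339 by edgeR).

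Within hosts, IgG was compared with no treatment. In iNOS KO hosts Cd274 was 17.3, 17.1 and 22.1 CPM with IgG against 33.04, 30.1 and 64.8 CPM without with no overlap (log2 fold change −1.18, standard error 0.273, adjusted p = 0.0846). It missed the threshold in this fit, where 0 of the 10 genes and 0.188% of all genes were called. Of the 10, 2 had an unadjusted p under 0.05, Cd274 and Cd276, beside 15.6% of all genes tested. DESeq2 called 1, Cd274, with an adjusted p of 0.00272, among 691 genes that it called in all. Leaving out iNOS KO untreated replicate 1 or 2 gave adjusted p-values of 0.0187 and 0.0219, and leaving out replicate 4 gave a log2 fold change of −0.73 with 0.195. Cd276 was 83.02, 95.4 and 96.6 CPM with IgG (log2 fold change 0.69, standard error 0.217, adjusted p = 0.240). These contrasts share the untreated iNOS KO tumors with the comparison of hosts. In WT hosts 0 genes of the 10 and 0.0% of all were called, and DESeq2 called 0 of the 10. Cd80 and Lag3 had an unadjusted p under 0.05, beside 7.83% of all genes tested. Cd80 was 3.53, 3.83 and 5.21 CPM with IgG and 1.40, 2.22 and 2.05 CPM without, with no overlap (log2 fold change 1.15, standard error 0.446, adjusted p = 0.566). Lag3 was 3.80, 3.73 and 3.18 CPM with IgG and 0.790, 2.48 and 1.503 CPM without (log2 fold change 1.17, standard error 0.503, adjusted p = 0.566).

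Whether the host difference itself differed between treatments was tested as a difference of contrasts, a comparison added after the levels had been seen. Untreated minus IgG, 0 of the 10 genes and 0.0% of all were called by edgeR, and DESeq2 called 0 of the 10. Of the 10, 4 had an unadjusted p under 0.05, beside 19.4% of all genes tested, with Cd274 at 1.12 (standard error 0.384, adjusted p = 0.216 by edgeR). Untreated minus anti-PD-1, 4 of the 10 were called, Cd274, Lag3, Cd80 and Cd276, beside 22.4% of all genes, and all 3 libraries rich in receptor counts are among the 12 tumors it compares. The unadjusted p was under 0.05 for 7 of the 10, beside 46.6% of all genes tested. DESeq2 called 6 of the 10, among 7335 genes that it called in all. Without those 3 libraries, which left 1 WT anti-PD-1 tumor and 2 untreated iNOS KO tumors, 0 of the 10 were called, with Cd274 at 1.85 and an adjusted p of 0.314. Leaving out 1 tumor at a time gave 0 to 6 calls, with 6 without WT anti-PD-1 replicate 2 and 0 without replicate 3 or 4.

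Other genes of the pathway came from 3 lists. Of 35 further costimulatory and coinhibitory receptors and ligands, 32 were tested in the time course and 34 at day 7, and edgeR called 0 in either direction in each of the 22 comparisons, with 0 to 10 at an unadjusted p under 0.05. Of 16 regulators of PD-L1, 16 were tested, and 1 was called in these 22, Irf1, higher in untreated tumors of iNOS KO hosts, with 0 to 6 at an unadjusted p under 0.05. Of 12 genes of PD-1 signaling and T cell exhaustion, 0 were called in the 22 comparisons, with 0 to 6 at an unadjusted p under 0.05. In the added difference of untreated and anti-PD-1, where 22.4% of all genes were called, edgeR called 4 genes higher and 1 lower of the first list, 2 and 1 of the second, and 6 and 1 of the third. The smallest adjusted p in each list belonged to Cd27 (3.62, standard error 0.921, adjusted p = 0.0294), Irf1 (2.06, standard error 0.459, adjusted p = 0.0244) and Zap70 (6.02, standard error 1.48, adjusted p = 0.0282). In untreated iNOS KO against WT hosts the median log2 fold changes of the 3 lists were 0.49, −0.14 and 0.95, beside 0.49 over all genes tested. In anti-PD-1 against IgG at 6 h they were −0.02, 0.09 and 0.17, beside −0.07 over all genes.

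The genes most like a member over the 30 time course tumors were found by Pearson r of log2(CPM + 0.5), given as a description with no test. For Cd274 they were Gbp10 (0.967), Gbp4 (0.963) and Irf1 (0.961), of which the first 2 encode interferon-induced guanylate-binding proteins. Over the 18 tumors of day 7 the same genes had r of 0.655, 0.709 and 0.888 with Cd274. For Ctla4 they included Il2ra (0.787) and Foxp3 (0.733), with 0.606 and 0.666 at day 7. Il2ra and Foxp3 encode the interleukin-2 receptor α chain and the factor that defines regulatory T cells. For Havcr2 they were Naa25 (0.839), Cxcl10 (0.820) and Rbm43 (0.802), with 0.189, 0.418 and −0.03 at day 7, so that this likeness was weaker in the second experiment. For Cd276 they were Tecr (0.944), Aebp1 (0.922) and Lbh (0.921), with 0.683, 0.838 and 0.659 at day 7. For Pdcd1 they were Gpr31b (0.766), Ccl3 (0.721) and AC091309.5 (0.721). At day 7 Ccl3 had 0.456 and AC091309.5 had 0.876. The points share depth and the cell content of each tumor, and few Pdcd1 and Ctla4 counts lie behind the values of those genes.

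Of the other members, Havcr2 (r = 0.615), Lag3 (0.588), Pdcd1 (0.577), Ctla4 (0.568) and Cd86 (0.457) also correlated with Cd274 over the 30 tumors at permutation p-values of 0.0004, 0.00071, 0.00334, 0.00131 and 0.0103, which were 0.0036, 0.00426, 0.012, 0.00589 and 0.031 after adjustment over the 18 relations. Their Spearman rho was 0.487, 0.512, 0.366, 0.506 and 0.378, with adjusted permutation p-values of 0.0425, 0.0425, 0.139, 0.0425 and 0.139. Without the 2 tumors highest in Cd274 r was 0.494, 0.517, 0.394, 0.335 and 0.256. Tigit (r = 0.317), Cd276 (0.171) and Cd80 (0.0511) did not pass (adjusted permutation p = 0.193, 0.53 and 0.837). Over the 18 tumors of day 7, 0 of the 9 relations passed, and r lay between −0.32 and 0.46. The plot of Irf1 and Pdcd1lg2 against Cd274 shows the tight relation with the first and the looser one with the second.

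**Figure D5:**
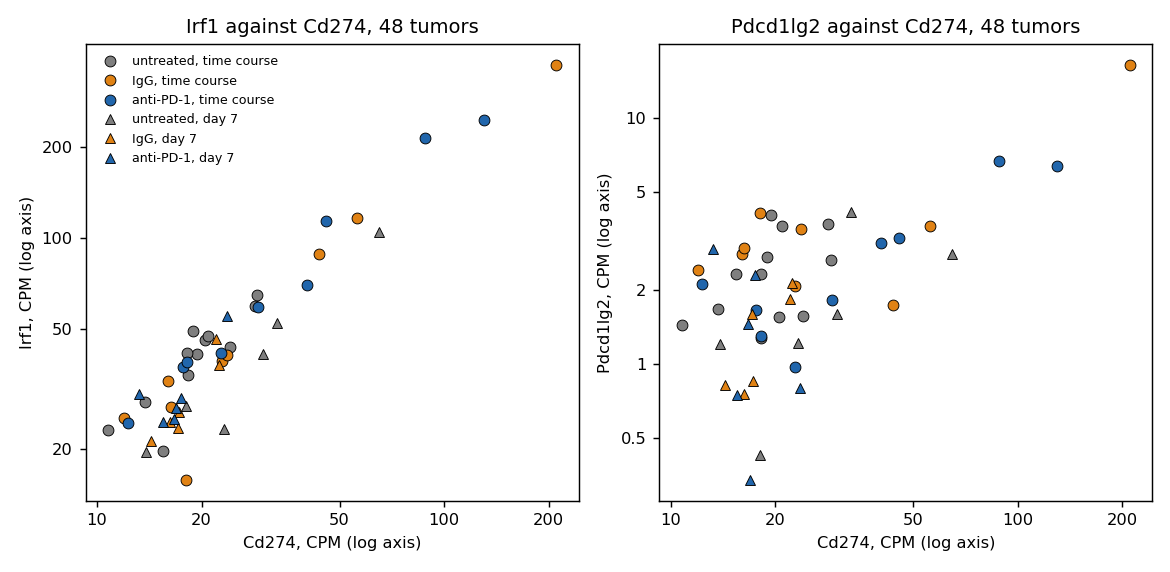
Irf1 and Pdcd1lg2 against Cd274, all in CPM on log axes, for the 48 tumors, with circles for the time course, triangles for day 7 and colors by treatment. Irf1 rises with Cd274 up to 374 CPM at 211 CPM of Cd274, and Pdcd1lg2 spreads widely among tumors with less than 30 CPM of Cd274.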

How the data were processed

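RNA of 48 B16-D5 tumors, 1 per mouse, was sequenced in 2 experiments. As the labels and methods give it, the authors trimmed adapters with cutadapt 1.8.1, aligned to mm10 with STAR 2.7.7a and quantified genes of GENCODE vM21 with RSEM 1.3.0. The deposited tables hold whole-number counts per gene, not normalized, and were not pooled over tumors. Their name refers to another counting program, so which one made the counts, and whether it used strand, is not given in the sources used here. Fractional or strand-blind counting could move counts between overlapping genes. Groups came from the titles: the treatment field matched the title in 14 of 48 samples, and the genotype field read WT in 48 although 9 titles name iNOS KO. Day 7 for the second experiment and 6 h for titles with day 0 came from the paper's text.

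The 2 experiments were analysed separately. Counts were scaled by TMM, filtered by filterByExpr (minimum count 10) and tested with edgeR 4.0.16's quasi-likelihood test (limma 3.58.1, R 4.3.3) over all conditions of the experiment, with no block. This kept 26848 genes of 30 libraries and 30837 genes of 18 libraries, and all 10 genes. P-values were adjusted by Benjamini-Hochberg over all genes tested, with a threshold of 0.05. There were 22 comparisons and 2 added after the data were seen. Standard errors are of the log2 fold change. The edgeR and DESeq2 p-values test a difference between groups against the spread between mice. Correlations used log2(CPM + 0.5) and 2-sided permutation tests with 100000 permutations. The chemosensory receptor set held 1502 genes with 5506.1 kb of exons. Alternatives were DESeq2 1.42.0 size factors and Wald test, no filter, the replicate number as a block, receptor counts as a covariate or subtracted, only the groups compared, each replicate left out and, added later, 3 libraries left out. The fits were tested on simulated data. Tables and plots were made in Python 3.11.15 with matplotlib 3.10.9, permutation tests with scipy 1.17.1, and sums with numpy 2.4.6 and pandas 2.3.3.

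Statistics are given for members called, the member with the smallest p in each comparison and Cd274 in each anti-PD-1 comparison, with up to 3 called genes per pathway list and the 3 genes most alike to Cd274, Pdcd1, Ctla4, Havcr2 and Cd276. Other values named were chosen after they were seen. The members and lists were chosen with earlier results of these data known. Marker lists of other cell types are given beside the day 7 host comparisons where their sums separated the groups, with macrophages and melanoma cells for untreated hosts. Where groups are said not to overlap, the share of all genes that do not overlap is not given beside it. Some genes are not reported here.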

Additional observations from a re-analysis of the deposited data

Results flagged for a closer look

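The host difference (iNOS KO against WT) at day 7 differed between untreated and anti-PD-1-treated tumors for 4 of the 10 genes in a test of the difference of contrasts that was chosen after the levels were seen. The difference was 1.37 on the log2 scale for Cd274 (standard error 0.385, adjusted p = 0.0355 by edgeR), 2.17 for Lag3 (standard error 0.709, adjusted p = 0.0440), 1.90 for Cd80 (standard error 0.630, adjusted p = 0.0447) and −1.07 for Cd276 (standard error 0.307, adjusted p = 0.0371). Of all genes tested 22.4% were called in this test, and the median over all of them was 1.36, beside 4 of the 10 genes named here. In the same test edgeR called 7 of 11 T cell markers and 3 of 4 NK cell markers, each higher. So were 4 of 7 dendritic cell markers and 3 of 4 B cell markers. Also called higher were Il2ra (regulatory T cells), S100a8 and Cxcr2 (neutrophils), Lor (keratinocytes), and Plin1 and Fabp4 (adipocytes). No marker of macrophages, melanoma cells, fibroblasts, endothelium or skeletal muscle was called. Cd4 was at 4.50 and Cd8a at 7.06. Cd8a rests on few counts, with 0, 4 and 11 in untreated WT tumors and 7, 10 and 7 in iNOS KO tumors after anti-PD-1. The part of these markers in the 4 values was not tested. Without the 3 libraries rich in receptor counts, which left 1 WT anti-PD-1 tumor assumed to vary like the other groups, none of the 4 was called: Cd274 was 1.85 (adjusted p = 0.314), Lag3 0.83, Cd80 1.36 and Cd276 −0.53 (adjusted p = 1.0 for each of the last 3). With an arm of 1 tumor a lost call says nothing about stability. Leaving out only WT anti-PD-1 replicate 3, or only replicate 4, also left none of the 10 called. Without replicate 3 the calls over all genes were 169, against 6919 with every tumor. With receptor counts as a covariate, 0 of all genes were called. Each condition holds 3 tumors, so no test for a single outlying tumor was made.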

How the results depend on the processing

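Of 365 recomputed counts of called members over 24 comparisons, 335 stayed within 1.5 times the count given, 11 were higher and 19 lower. In 22 of the 24 comparisons the count given was 0 and could not fall, so staying the same says little there. The 19 lower counts all came from the 2 comparisons with a member called, which had 14 and 20 alternatives. Without the filter on low counts, Cd274 was called, as 1 of the 10, after anti-PD-1 at 6 h (2.09, adjusted p = 0.0383) and after IgG at day 1 (2.18, adjusted p = 0.0134), each against untreated tumors. DESeq2's Wald test called 1, Cd80, between hosts after anti-PD-1, where it called 3227 of all genes. Between hosts in untreated tumors the count was 0 with the replicate block (Cd274 1.06, adjusted p = 0.119) and 0 with only the groups compared, and 0 to 1 when single tumors were left out. For IgG against untreated iNOS KO tumors it was 1 with DESeq2 size factors, without the filter and with the Wald test, 2 with only the groups compared, and 0 to 1 when single tumors were left out. That range was also 0 to 1 for anti-PD-1 against IgG in WT tumors at day 7 and for hosts after anti-PD-1. The added difference of untreated and anti-PD-1 had 1 with the replicate block, 0 with receptor counts as a covariate, 1 with them subtracted, 0 with only the groups compared, 0 without the 3 receptor-rich libraries, and 0 to 6 when single tumors were left out. Of 548 recomputed log2 fold changes of 35 results, 458 kept direction and side, 24 reversed, 9 passed newly and 57 lost the call, and 27 results had no reversal. Only results with a call could lose it: Cd274 between untreated hosts, with 14 alternatives, and Cd274, Lag3, Cd80 and Cd276 in the added difference, with 20 each. The 57 losses all fell among these alternatives, so 548 is not their base. They include the setting that left 1 WT anti-PD-1 tumor, where a lost call says nothing about stability. Cd274 for anti-PD-1 against IgG, averaged over 3 times, was −0.20 with the replicate block, −0.14 with the covariate and −0.29 to 0.72 when single tumors were left out. In WT tumors at day 7 it was −0.030 without the filter, −0.12 with the replicate block and −0.21 to 0.28 with single tumors left out. Between hosts after anti-PD-1 it was 0.030 with the replicate block and −0.34 to 0.14 with single tumors left out. The other leave-one-out ranges that crossed 0 were −2.27 to 0.32 for Cd274 at day 1, −0.28 to 1.20 at day 3, −0.48 to 0.015 in the genotype by treatment interaction, and for Pdcd1 at day 3 −3.35 to 0.66 against IgG and −0.39 to 2.98 for IgG against untreated. The cause of these changes was not tested. Same-numbered tumors did not deviate together (median correlation −0.03 over 65 pairs and −0.02 over 36, with 12 and 7 over 0.1), so the numbers were not taken as pairs. Over all genes, calls between hosts in untreated tumors were 181 and ran from 29 with the covariate to 1349 without the filter. Calls averaged over treatments were 3 and ran from 1 to 1165, those of IgG against untreated iNOS KO tumors were 58 and ran from 0 to 1363, and those of the added difference were 6919 and ran from 0 to 10720, or from 169 to 18929 when single tumors were left out, with the highest without WT anti-PD-1 replicate 2. Without that tumor 4959 genes were called between hosts after anti-PD-1 and 2271 for anti-PD-1 against IgG in WT tumors, against 0 in each with it. DESeq2 size factors moved the median over all genes by 0.10 for anti-PD-1 against IgG in WT tumors at day 7, by −0.11 between hosts after anti-PD-1 and by 0.18 in the added difference. With them, 160 of 160 mean levels stayed within 1 SD. Depth limits Pdcd1, Ctla4 and Tigit most, with at most 3 counts in 8, 8 and 9 of the 18 libraries of day 7.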
